A study of Mus musculus with 4 samples.

Results

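Fatty acid oxidation genes of mouse subcutaneous white adipose tissue were examined, 38 in all, of the 21899 rows of a table of protein-coding genes. They comprised 26 genes for the mitochondrial pathway and 12 for the peroxisomal pathway, and were found by exact gene symbol, each in 1 row. The tissue came from mice of 2 groups, 1 labelled as miR-203 inhibitor and 1 labelled as negative control, with 2 RNA sequencing libraries in each group. Each library was made from total RNA pooled from 3 animals, so 6 animals stood behind each group and the spread between libraries was a spread between pools. The labels give the tissue and the group of each library; the sources used here give no strain, age, sex, dose, route or duration. The series title places miR-203 in a network with cyclic AMP and interferon gamma that acts on the browning of subcutaneous fat and on glucose tolerance, and browning is the appearance of adipocytes that burn fatty acids for heat.

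Fatty acids are activated to acyl-CoA, cross the mitochondrial membranes as carnitine esters, and are shortened in a repeated spiral of dehydrogenation, hydration, a second dehydrogenation and thiolytic cleavage. The electrons enter the respiratory chain partly through the electron transfer flavoprotein. Peroxisomes run a parallel spiral that shortens very long and branched chains and passes shortened chains on to mitochondria. In brown and beige fat this pathway supplies the fuel for uncoupled respiration, while white adipocytes mainly store and release fatty acids.

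The inhibitor was directed at miR-203, a microRNA that pairs with messenger RNAs through bases 2 to 8 of its mature strand, the seed. The mature 3' strand, from RefSeq (GRCm38.p6), is encoded at chr12:112130927-112130948 on the plus strand and is shown with its seed in capitals, because it is the molecule the treatment was aimed at.
mmu-miR-203-3p: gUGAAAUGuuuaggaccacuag
The DNA match to that seed, CATTTCA, was searched for in 3' untranslated regions, taking the longest one that GENCODE M21 (GRCm38) gives for a gene. It was held by 5 of the 38 fatty acid oxidation genes, which is 13.2%, and by 17.6% of the 12194 tested genes with such a region. The 5 sites are shown on the strand of the messenger RNA with the match in capitals, since these are the members that hold this match. Shorter matches and other parts of the transcripts were not searched.
Acsl1: gaaattaacagCATTTCActttactgcaa
Ehhadh: tacaagtcacaCATTTCAgctgtgtgacg
Acadl: ttatatgaagtCATTTCAgctactttttg
Acaa1b: ttggttgcagtCATTTCA
Acadsb: gacctcaacccCATTTCAcaaaactttct
The log2 fold changes of these 5 genes, inhibitor over control, lay between -0.43 (Acsl1) and -0.22 (Acadsb). Of all 38 members 35 had a negative log2 fold change, so this sign does not set the members with a match apart. The part of the sites in these values was not tested. A match is a run of letters and does not show that the site is used.

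Levels are in FPKM, which corrects for transcript length and library size, so levels of different genes can be set side by side. Absolute depth is unknown, and low values gave depths of 0.933 (inhibitor 1), 0.908 (inhibitor 2) and 1.06 (control 2) relative to control 1. All 8 adipocyte markers, among them Adipoq at 1094.5 and 996.6 FPKM in inhibitor 1 and inhibitor 2 and 1255.5 and 1303.0 FPKM in control 1 and control 2, were measured in every library. Of 12 skeletal muscle markers 11 had rows, and their summed level was 7.71 and 7.05 FPKM in the inhibitor libraries and 3.96 and 9.90 FPKM in the controls, with no single value above 3.72 FPKM. The highest value of 5 epithelial markers was 0.804 FPKM, and Krt8 was listed at 0 in every library. Summed lymph node markers were 153.6 and 177.6 FPKM in the inhibitor libraries, 348.6 FPKM in control 1 and 3.42 FPKM in control 2, so the controls differed from each other in that tissue, and results are given without each control where this changed a call.

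Most fatty acid oxidation genes were lower in the inhibitor libraries by a modest amount, and 3 passed the test. Cpt1b, Acadvl and Etfdh fell, and no member rose (limma on log2(FPKM + 1), Benjamini-Hochberg adjusted p under 0.05 over the 12345 rows that averaged 1 FPKM or more). All 38 members passed that filter on low values. At this threshold 0.267% of all rows tested were lower and 3.22% were higher, 3.48% in all. Of the 38 members 35 had a negative log2 fold change, against 40.0% of all rows, and the member median was -0.35, a 1.28-fold lower level, against a median of 0.07 over all rows. In 32 members both inhibitor values lay below both control values, as they did in 19.1% of all rows, and in 3 both lay above, as in 33.1% of all rows. An unadjusted p under 0.05 with a lower level was reached by 22 members, against 5.95% of all rows. In bulk tissue, fewer adipocytes and less of these RNAs per adipocyte cannot be told apart.

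**Figure D1:**
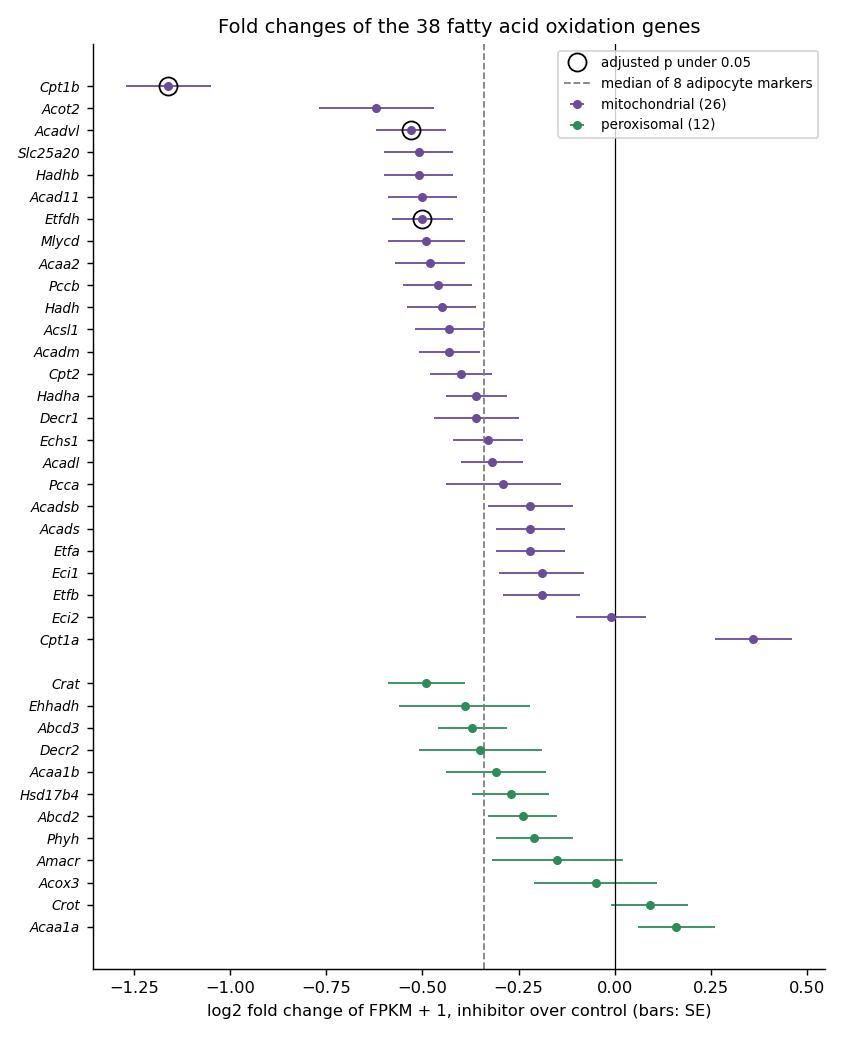
Log2 fold change of FPKM + 1, inhibitor over control, for each of the 26 mitochondrial and 12 peroxisomal genes, with SE bars from limma (2 libraries per group), rings on the 3 genes with an adjusted p under 0.05, and a dashed line at the median of 8 adipocyte markers (-0.34). Cpt1b lies apart at -1.16, Cpt1a lies on the other side of 0 at 0.36, and most other genes lie near the dashed line.

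Markers of the adipocyte itself had fold changes of similar size. All 8 adipocyte markers had lower values in both inhibitor libraries than in both controls, with a median log2 fold change of -0.34 and a range of -0.49 to -0.20, and 0 of the 8 passed with limma at an adjusted p under 0.05, while 7 were lower at an unadjusted p under 0.05. Their summed level was 15849.3 and 14791.3 FPKM in the inhibitor libraries and 19043.4 and 19411.4 FPKM in the controls. The 8 markers of heat-producing adipocytes had a median of -1.05, with 7 of 8 past the threshold. Ucp1, the uncoupling protein of brown and beige fat, had 286.8 and 270.3 FPKM in the inhibitor libraries and 780.7 and 648.9 FPKM in the controls. In an alternative chosen after seeing the data, the libraries were scaled so that the mean log2 level of the 8 adipocyte markers was equal. The median of all rows then shifted to 0.37, and the calls among the 38 genes became 1 lower, Cpt1b (log2 fold change -0.83, adjusted p = 0.0148), and 2 higher, Cpt1a (0.69, adjusted p = 0.0170) and Acaa1a (0.50, adjusted p = 0.0225). Acadvl and Etfdh then stood at -0.19 and -0.16 (adjusted p = 0.193 and 0.248). The part of adipocyte content in the lower values of the members was not tested beyond this.

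Markers of macrophages, another cell type of the tissue, differed in both directions. Of 7 tested, Cd68 rose, with 226.8 and 232.8 FPKM in the inhibitor libraries and 135.7 and 143.1 FPKM in the controls (log2 fold change 0.72, adjusted p = 0.0163). Cd163 fell, with 30.2 and 27.4 FPKM in the inhibitor libraries and 44.4 and 48.9 FPKM in the controls (-0.68, adjusted p = 0.0389). The summed level of the 7 was 1717.4 and 1519.4 FPKM in the inhibitor libraries and 1597.7 and 1683.6 FPKM in the controls, which overlapped. Lyz2 and C1qa carried most of that sum, so it says little of the other markers. Both inhibitor values lay below both control values in 4 of the 7, among them Mrc1 (-0.39), against 19.1% of all rows. They lay above in 2, Cd68 and Adgre1 (0.50), against 33.1% of all rows. Mrc1 and Adgre1 did not pass. The 13 genes of mitochondrial DNA took 10.2% and 12.1% of all FPKM in the inhibitor libraries and 14.4% and 17.5% in the controls, without overlap. With the libraries rescaled without these genes, 8 of the 38 members passed as lower. The part of either in the members' values was not tested further.

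The entry of acyl chains into mitochondria held the widest split. Cpt1b encodes the muscle and brown fat form of carnitine palmitoyltransferase 1, the enzyme of the outer membrane that commits long chains to oxidation. It had 23.4 FPKM in inhibitor 1 and 27.2 FPKM in inhibitor 2, against 58.7 FPKM in control 1 and 56.9 FPKM in control 2. Both inhibitor values lay far below either control value, and their mean was 43.8% of the control mean. Cpt1b fell by 1.16 on the log2 scale (SE 0.11, adjusted p = 0.0115). Cpt1a, the liver form of the same enzyme, had 33.5 and 34.0 FPKM in inhibitor 1 and inhibitor 2, against 27.3 and 25.0 FPKM in control 1 and control 2. The groups were separate and the inhibitor libraries higher, but the log2 fold change of 0.36 ± 0.10 did not pass (adjusted p = 0.137). By these FPKM values the order of the isoforms was turned round: the ratio of Cpt1b to Cpt1a was 0.699 and 0.800 in the inhibitor libraries and 2.15 and 2.28 in the controls, a log2 difference of -1.57. Cpt1b made up 41.1% and 44.4% of the summed FPKM of both isoforms in the inhibitor libraries and 68.3% and 69.5% in the controls. The sum itself was 57.0 and 61.2 FPKM in the inhibitor libraries and 86.0 and 81.9 FPKM in the controls. A ratio within a library is not changed by scaling the library. Skeletal muscle also expresses Cpt1b, and its 11 markers together came to 7.71 and 7.05 FPKM in the inhibitor libraries and 3.96 and 9.90 FPKM in the controls; their part in the Cpt1b value was not tested.

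The annotated span of Cpt1b is chr15:89416405-89425863, minus strand (GRCm38, GENCODE M21). A longer annotated gene on the same strand, Gm44502, contains 93.0% of the 50-base stretches of its transcript, so fragments may have been divided between them, and Gm44502 was not analysed here. The absolute Cpt1b level is thus uncertain. So are the shares of the isoforms given above and which of them was the more abundant. That of Cpt1a is chr19:3322334-3385733, plus strand.

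**Figure D2:**
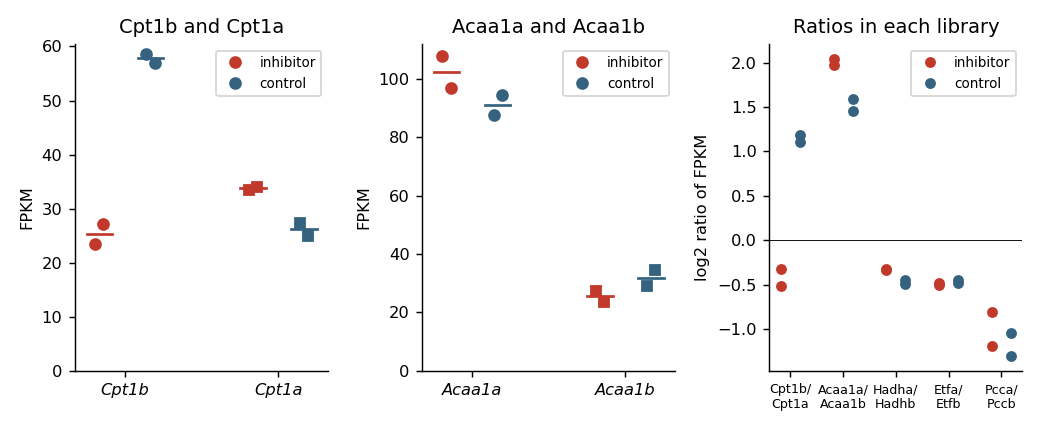
Left and middle, FPKM in each library (points) and group means (lines) of Cpt1b with Cpt1a and of Acaa1a with Acaa1b; right, log2 ratio of FPKM within each library for 5 pairs. The Cpt1b to Cpt1a ratio lies below 0 in both inhibitor libraries and above 1 in both controls, while the Etfa to Etfb and Pcca to Pccb ratios overlap between the groups.

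The other genes for steps before the spiral were lower by smaller amounts. Slc25a20, the translocase that carries acylcarnitines across the inner membrane, had 80.7 and 74.7 FPKM in the inhibitor libraries and 114.7 and 107.4 FPKM in the controls, and the log2 change was -0.51 ± 0.09 (adjusted p = 0.0538). Cpt2, which returns the chain to CoA in the matrix, had 76.2 and 79.7 FPKM in the inhibitor libraries and 106.1 and 100.6 FPKM in the controls (adjusted p = 0.0795). Acsl1, the acyl-CoA synthetase that activates long chains, was the most abundant of the 38 transcripts. It averaged 668.8 ± 2.98 FPKM in the inhibitor libraries and 902.1 ± 56.7 FPKM in the controls (SD, n = 2 each), and the log2 change was -0.43 ± 0.09 (adjusted p = 0.0777). Mlycd encodes malonyl-CoA decarboxylase, which removes the malonyl-CoA that inhibits carnitine palmitoyltransferase 1, and its change was -0.49 ± 0.10 on the log2 scale (adjusted p = 0.0738). Each of these 4 genes had separate groups, and none passed.

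The acyl-CoA dehydrogenases, which take the first electrons from the chain and differ in the chain lengths they accept, were all lower without overlap between the groups, and 1 of 6 passed. Acadvl, the enzyme for very long chains at the inner membrane, had 155.2 and 154.2 FPKM in inhibitor 1 and inhibitor 2, against 213.1 and 233.5 FPKM in control 1 and control 2. It fell by 0.53 on the log2 scale (SE 0.09, adjusted p = 0.0439). Acad11, which acts on long chains, followed at -0.50 (adjusted p = 0.0602), and Acadm, the enzyme for medium chains, at -0.43 (adjusted p = 0.0543). Acadm gave 227.1 and 227.7 FPKM in the inhibitor libraries and 304.3 and 308.8 FPKM in the controls, so the libraries within a group differed far less than the groups. Acadl, Acads and Acadsb, for long, short and short branched chains, had log2 fold changes of -0.32, -0.22 and -0.22, none past the threshold. Acadvl spans chr11:70010183-70015411 (minus strand) and overlaps Dvl2 by 2119 bases on the opposite strand. The kit was directional, but the sources used here do not say whether fragments were assigned by strand. Dvl2 had 7.05 and 7.23 FPKM in the inhibitor libraries and 9.32 and 4.80 FPKM in the controls.

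Genes for the later steps of the mitochondrial spiral were also lower in every comparison of single libraries. Hadha and Hadhb encode the 2 subunits of the trifunctional protein, which hydrates, oxidises and cleaves long chains, and their genes lie back to back on chromosome 5 with 85 bases between them. Hadhb had 206.5 and 218.3 FPKM in the inhibitor libraries and 288.9 and 315.5 FPKM in the controls, and the log2 change was -0.51 ± 0.09 (adjusted p = 0.0529). Hadha had 163.9 and 175.0 FPKM in the inhibitor libraries and 211.8 and 224.0 FPKM in the controls, and the log2 change was -0.36 ± 0.08 (adjusted p = 0.104). The ratio of Hadha to Hadhb was 0.794 and 0.802 in the inhibitor libraries and 0.733 and 0.710 in the controls, a log2 difference of 0.14. A processed pseudogene, Gm13910, shares 61.5% of the 50-base stretches of the Hadhb transcript, so the Hadhb level is less certain than that of Hadha. Hadh, the dehydrogenase for shorter hydroxyacyl chains, Echs1, the short chain hydratase, and Acaa2, the thiolase, had log2 fold changes of -0.45, -0.33 and -0.48, with adjusted p values of 0.0747, 0.124 and 0.0632.

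Of the 3 genes for the electron transfer flavoprotein and its oxidoreductase, 1 passed. Etfdh, which passes the electrons of all these dehydrogenases to ubiquinone, had 70.0 and 68.3 FPKM in inhibitor 1 and inhibitor 2, against 95.1 and 100.7 FPKM in control 1 and control 2. It fell by 0.50 on the log2 scale (SE 0.08, adjusted p = 0.0477). Etfa and Etfb, the 2 subunits of the soluble carrier, had log2 fold changes of -0.22 ± 0.09 and -0.19 ± 0.10 (adjusted p = 0.287 and 0.371). Etfa had 233.2 and 225.0 FPKM in the inhibitor libraries and 251.7 and 281.8 FPKM in the controls, and Etfb had 330.6 and 313.2 FPKM in the inhibitor libraries and 343.3 and 393.2 FPKM in the controls. Their ratio was 0.706 and 0.718 in the inhibitor libraries and 0.733 and 0.717 in the controls, so it overlapped between the groups. Whether Etfdh differed in its change from Etfa or Etfb was not tested. Etfb shares 67.3% of its 50-base stretches with Gm45233, a longer gene on the same strand that was not analysed here. Etfdh spans chr3:79603788-79629500 (minus strand).

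Auxiliary mitochondrial enzymes were mixed. Acot2, a matrix thioesterase that releases free fatty acids from acyl-CoA, had 14.6 and 13.7 FPKM in the inhibitor libraries and 25.2 and 19.6 FPKM in the controls. Its log2 fold change of -0.62 ± 0.15 was second in size to that of Cpt1b but did not pass (adjusted p = 0.109). It shares 24.5% of its 50-base stretches with Acot1, which had 2.51 and 3.45 FPKM in the inhibitor libraries and 5.56 and 4.61 FPKM in the controls, so these levels may not be separate. Decr1 and Eci1, which handle the double bonds of unsaturated chains, had -0.36 and -0.19, and Eci2, another isomerase for such bonds, had -0.01 ± 0.09, with a 95% interval of -0.25 to 0.22 and overlapping groups. Propionyl-CoA carboxylase, which takes up the odd remainder of a chain, has subunits encoded by Pcca and Pccb. Pccb had 80.3 and 80.7 FPKM in the inhibitor libraries and 115.4 and 106.5 FPKM in the controls (log2 fold change -0.46 ± 0.09, adjusted p = 0.0631). Pcca had 45.9 and 35.4 FPKM in the inhibitor libraries and 46.9 and 51.9 FPKM in the controls, and the log2 change was -0.29 ± 0.15 (adjusted p = 0.366), and inhibitor 1 lay close to control 1.

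**Figure D3:**
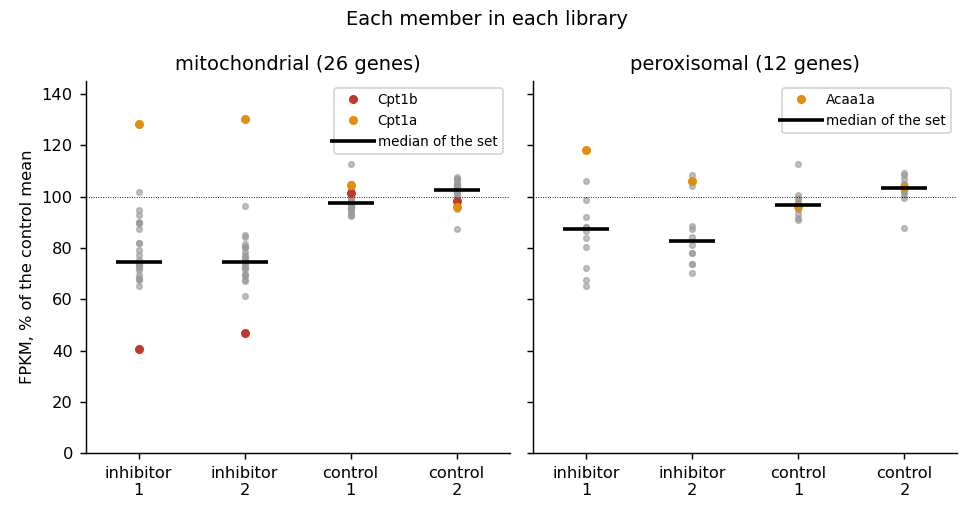
FPKM of each gene in each library as a percentage of its own mean over the 2 controls, for 26 mitochondrial genes (left) and 12 peroxisomal genes (right); points are genes, black bars are the medians of the set in that library. The mitochondrial medians are 74.7% in both inhibitor libraries and the peroxisomal medians are 87.2% and 82.9%, with Cpt1b the lowest point and Cpt1a the highest on the left in both inhibitor libraries.

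The peroxisomal genes had the smaller median fold change. Of the 12, 0 passed in either direction with limma, and 4 were lower and 0 higher at an unadjusted p under 0.05, against 3 lower, 0 higher, 18 lower and 1 higher of the 26 mitochondrial genes by the same rules. The median log2 fold change was -0.26 for the peroxisomal genes and -0.42 for the mitochondrial genes, a difference of -0.16 (mitochondrial minus peroxisomal). Both inhibitor values lay below both control values in 8 of the 12 peroxisomal genes and in 24 of the 26 mitochondrial genes. The same held for 19.1% of all rows tested. At an unadjusted p under 0.05 with limma, 5.95% of all rows were lower and 13.4% were higher. The mean log2(FPKM + 1) level of the mitochondrial set exceeded that of the peroxisomal set by 1.24 and 1.21 in the inhibitor libraries and by 1.41 and 1.37 in the controls, so the gap was narrower in both inhibitor libraries. Set against the 8 adipocyte markers in the same library, the mitochondrial level stood at -3.15 and -3.09 on the log2 scale in the inhibitor libraries and at -3.10 and -3.07 in the controls, which overlapped. The peroxisomal level stood at -4.40 and -4.30 in the inhibitor libraries and at -4.50 and -4.44 in the controls, which were separate. Some proteins are known from both organelles or from other membranes, and without Acad11, Eci2, Mlycd, Acsl1, Crat and Amacr the medians were -0.38 for the mitochondrial and -0.26 for the peroxisomal genes. No test was made of the difference between the sets.

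Within the peroxisomal spiral 5 of 6 genes had negative log2 fold changes, and none passed. Hsd17b4, the bifunctional enzyme for branched and very long chains, had 111.4 and 98.4 FPKM in the inhibitor libraries and 123.8 and 129.0 FPKM in the controls (log2 fold change -0.27 ± 0.10, adjusted p = 0.222). Ehhadh, the other bifunctional enzyme, had 32.2 and 43.2 FPKM in the inhibitor libraries and 45.0 and 54.1 FPKM in the controls, and the log2 change was -0.39 ± 0.17 (adjusted p = 0.301). Its libraries differed within each group almost as much as the groups did. Decr2, the reductase for unsaturated chains, had -0.35 (adjusted p = 0.303), and Acox3, an oxidase for branched chains, had -0.05 with overlapping groups (adjusted p = 0.886).

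Acaa1a and Acaa1b, the 2 genes for the peroxisomal thiolase in mice, had log2 fold changes of opposite sign, neither past the threshold. Acaa1a had 107.8 and 96.8 FPKM in the inhibitor libraries and 87.7 and 94.4 FPKM in the controls, and the log2 change was 0.16 ± 0.10 (adjusted p = 0.416). Acaa1b had 27.5 and 23.5 FPKM in the inhibitor libraries and 29.1 and 34.5 FPKM in the controls, and the log2 change was -0.31 ± 0.13 (adjusted p = 0.298). The ratio of Acaa1a to Acaa1b was 3.92 and 4.12 in the inhibitor libraries and 3.01 and 2.74 in the controls, and the sum of both was 135.3 and 120.3 FPKM in the inhibitor libraries and 116.9 and 128.9 FPKM in the controls, so the ratio was separate between the groups and the sum was not. The genes lie 182582 bases apart on chromosome 9 and share 34.0% of the 50-base stretches of Acaa1a, which makes their separate levels uncertain. Acaa1a also overlaps Myd88, an adaptor of Toll-like receptors, by 1736 bases on the opposite strand. Myd88 rose, with 56.4 and 67.0 FPKM in the inhibitor libraries and 32.8 and 33.4 FPKM in the controls (log2 fold change 0.87, adjusted p = 0.0232), and its part in the Acaa1a value was not tested.

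Transport and branched chain handling completed the peroxisomal set. Crat, carnitine acetyltransferase, which is also found in mitochondria, had the lowest log2 fold change of the set at -0.49 ± 0.10 (adjusted p = 0.0738), with 137.9 and 134.0 FPKM in the inhibitor libraries and 177.9 and 204.4 FPKM in the controls. Crot, which makes carnitine esters of medium chains for export, had 19.7 and 20.2 FPKM in the inhibitor libraries and 18.4 and 18.9 FPKM in the controls, and its log2 fold change of 0.09 turned to -0.02 with upper quartile scaling and with quantile normalization. Abcd3 and Abcd2, transporters that bring acyl-CoA into peroxisomes, had -0.37 and -0.24, with separate groups and adjusted p values of 0.112 and 0.237. Phyh, which starts the breakdown of phytanic acid, had -0.21 (adjusted p = 0.356). Amacr, the racemase for branched chains, was the least abundant member, at 4.31 ± 0.721 FPKM in the inhibitor libraries and 4.88 ± 0.220 FPKM in the controls (SD, n = 2 each), with overlapping groups.

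Genes of the same pathway outside these 38 were examined next, from a list with 47 rows, of which 42 passed the filter. None passed the test in either direction with limma, and their median log2 fold change was -0.25. At an unadjusted p under 0.05, 13 were lower and 1 higher, against 5.95% and 13.4% of all rows. The lowest value, named for its size, was that of Fabp3, a fatty acid carrier of heart, muscle and brown fat, with 47.7 and 25.8 FPKM in the inhibitor libraries and 161.0 and 102.1 FPKM in the controls (-1.84 ± 0.34, adjusted p = 0.0612). Of 16 peroxins and related factors that build and divide peroxisomes 0 passed with limma, and their median was -0.17. At an unadjusted p under 0.05, 1 was lower (6.25%, near the share of all rows) and 0 were higher. Pex11a, which acts in peroxisome division, had 31.0 and 30.1 FPKM in the inhibitor libraries and 24.6 and 29.4 FPKM in the controls (log2 fold change 0.18, adjusted p = 0.475).

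Regulators of the pathway did not pass either. Of 23 tested, 0 passed with limma, and their median was -0.12. At an unadjusted p under 0.05, 4 were lower (17.4%) and 1 higher, against 5.95% and 13.4% of all rows. The lowest log2 fold change and smallest p of the list, named after its values were seen, were those of Esrrg, an orphan nuclear receptor of oxidative tissues, with 0.679 and 0.633 FPKM in the inhibitor libraries and 1.98 and 3.74 FPKM in the controls (-1.18 ± 0.27, adjusted p = 0.101). Esrrg is 1 of the 4 lower regulators, but it met the filter of 1 FPKM only through the controls. Its mean was 0.656 FPKM in the inhibitor libraries and 2.86 FPKM in the controls, so its p is not used as support. Ppara, the nuclear receptor best known for inducing these genes, had 1.61 and 3.96 FPKM in the inhibitor libraries and 3.53 and 6.49 FPKM in the controls, with overlapping groups (log2 fold change -0.69 ± 0.39, adjusted p = 0.400). Pparg, its relative that governs adipocyte identity, had 114.1 and 114.9 FPKM in the inhibitor libraries and 102.7 and 118.4 FPKM in the controls (log2 fold change 0.05, adjusted p = 0.810). Ppargc1a, a coactivator of mitochondrial genes, had 3.93 and 5.75 FPKM in the inhibitor libraries and 7.11 and 14.7 FPKM in the controls, and the log2 change was -0.97 ± 0.35 (adjusted p = 0.223).

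**Figure D4:**
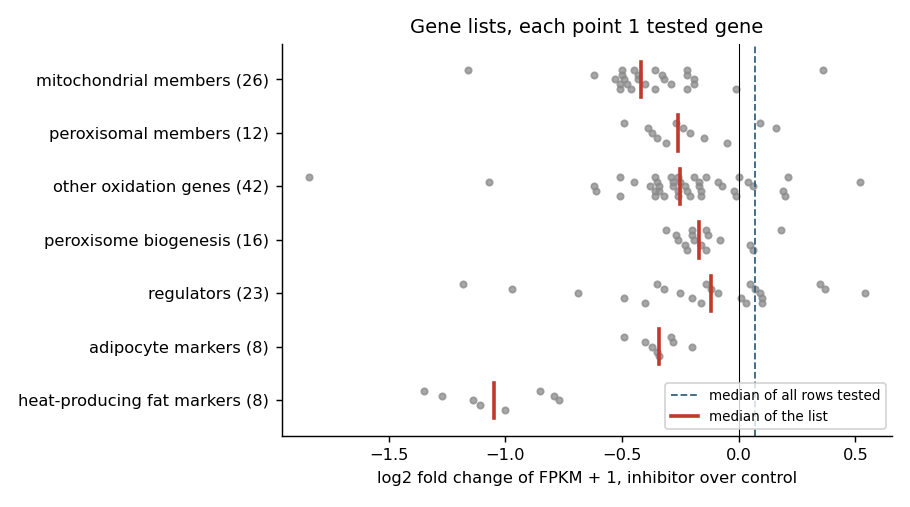
Log2 fold change of FPKM + 1, inhibitor over control, of each tested gene in 7 lists, with the list median as a red bar and the median of all 12345 rows as a dashed line at 0.07. The mitochondrial median (-0.42) and peroxisomal median (-0.26) lie on both sides of the adipocyte marker median (-0.34), and the heat-producing fat markers lie lower, at -1.05.

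Receptors of the PPAR family bind, with a partner, a direct repeat of the core hexamer AGGTCA, and many fatty acid oxidation genes are known targets. Promoter windows of 250 bases before to 50 bases after the start (RefSeq, GRCm38.p6) were found for 31 of the 38 genes. Cpt1b, the gene with the largest change, had no window and was not searched, nor were Abcd2, Acaa2, Amacr, Crat, Decr1 and Hsd17b4. The direct repeat of that core hexamer with 1 base between, searched on both strands, was in 0 of the 31 and in 0.0396% of 32851 promoters. The single core hexamer, which each repeat also contains, was in the windows of 6 genes, Acadm, Acadvl, Cpt1a, Echs1, Pcca and Phyh, and in 16.3% of all promoters. The cyclic AMP response element TGACGTCA was in 0 of the 31 and in 1.79% of all promoters. This element and the direct repeat are both rare in such windows, so a count of 0 does not set the members apart from other genes. The windows of Acadvl, which fell, and of Cpt1a, which had the highest fold change of the 38, are shown 5′ to 3′ on the strand of the gene, with the core hexamer in capitals. They are at chr11:70015379-70015678 on the minus strand and chr19:3323051-3323350 on the plus strand.
Acadvl: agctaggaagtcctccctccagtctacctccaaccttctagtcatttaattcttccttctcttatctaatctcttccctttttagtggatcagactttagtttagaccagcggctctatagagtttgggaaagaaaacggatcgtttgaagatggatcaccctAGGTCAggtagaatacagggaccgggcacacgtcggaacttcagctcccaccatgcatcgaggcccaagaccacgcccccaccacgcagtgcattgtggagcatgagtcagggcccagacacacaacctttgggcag
Cpt1a: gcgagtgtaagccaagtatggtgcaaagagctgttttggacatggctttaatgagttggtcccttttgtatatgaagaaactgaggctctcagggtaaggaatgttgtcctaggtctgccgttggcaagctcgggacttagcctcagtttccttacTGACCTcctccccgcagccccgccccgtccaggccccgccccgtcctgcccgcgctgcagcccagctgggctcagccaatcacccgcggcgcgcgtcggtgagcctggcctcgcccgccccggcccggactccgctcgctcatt
The core hexamer stands on the gene's own strand in Acadvl, 87 bases before the start. In Cpt1a it stands on the opposite strand, 94 bases before the start. The other genes with it, Acadm, Echs1, Pcca and Phyh, had log2 fold changes of -0.43, -0.33, -0.29 and -0.21. Cpt1a, shown for its high value, was thus the exception in sign among the 6. The part of the hexamer in these values was not tested. The letters in such a window do not show that a factor binds.

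The calls of Acadvl and Etfdh were near the threshold. Slc25a20, Hadhb and Acadm lay just outside it, at adjusted p values of 0.0538, 0.0529 and 0.0543, beside 0.0439 for Acadvl and 0.0477 for Etfdh. Without inhibitor 1 or without inhibitor 2, 0 members and 0 rows of the table passed, although 19 and 18 members were lower at an unadjusted p under 0.05, as were 511 and 325 of all rows. Those fits take their residual spread from the controls alone, and the log2 change of Cpt1b was then -1.06 and -1.27 (adjusted p = 0.115 and 0.141). Fits without a control take it from the inhibitor libraries alone, which differed less from each other (SD of the log2 difference 0.298, against 0.406 for the controls). The log2 changes of Cpt1b, Acadvl and Etfdh were -1.19, -0.46 and -0.45 without control 2, where Acadvl and Etfdh no longer passed. Without control 1 they were -1.14, -0.59 and -0.54. That fit added calls for Hadhb, Crat and Acsl1 (-0.57, -0.58 and -0.49), which its smaller residual spread makes less firm. With a pseudocount of 0.1, Etfdh no longer passed (adjusted p = 0.0506). Without the filter on low values, where more rows share the adjustment, Acadvl and Etfdh had adjusted p values of 0.0852 and 0.0773. Over its 12 alternatives Cpt1b stayed between -1.28 and -0.83, with adjusted p values from 0.0103 to 0.141.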

How the data were processed

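RNA from subcutaneous white adipose tissue was sequenced in 4 libraries, 2 per group, each a pool of 3 animals. The deposited table gives FPKM by gene, per the file headers. The submitters' processing notes name TopHat and TopHat2 2.0.11, Cufflinks 2.1.1 and the mm10 build, and the sources used here give no settings, annotation or strand assignment. FPKM keeps no read counts, so absolute depth is unknown and no count model was used.

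Fold changes are on the log2(FPKM + 1) scale, so those of low genes are understated. After dropping rows averaging under 1 FPKM, 12345 rows entered a two-sided limma fit (version 3.58.1, R 4.3.3, lmFit and trended eBayes). P-values were adjusted by Benjamini-Hochberg over these rows; 2 residual degrees of freedom rose to 5.29 by moderation. The pipeline was also run on simulated data in which the spreads were shuffled over genes. The shuffling drops any link between spread and level, so no result here rests on that run. The members and lists were chosen with earlier results of these data known. Values in every library were to be given for members past the threshold, members changed at least 1.5-fold, the extremes of the mitochondrial and peroxisomal sets and enzyme pairs. Of the other lists the rule covered genes past the threshold and a few chosen by name, 1 of which is not reported here. Other genes are named because their values were seen. Scaling to adipocyte markers was added after seeing the data. Endothelial and hepatocyte markers, not described in the text, had 0 of 4 and 0 of 1 tested genes past the threshold.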

Additional observations from a re-analysis of the deposited data

How the results depend on the processing

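The median of the mitochondrial genes was -0.42 and became -0.54 with upper quartile scaling, -0.48 with quantile normalization, -0.47 after rescaling without the genes of mitochondrial DNA and -0.38 without the genes known from several sites; that of the peroxisomal genes was -0.26 and became -0.38, -0.33 and -0.31 with the first 3 of these. Upper quartile scaling moved the median of all rows from 0.07 to -0.04. The difference between the sets was -0.16, and -0.13 without the genes of several sites. Leaving out 1 library gave -0.42 to -0.39, -0.31 to -0.19 and -0.23 to -0.12 for these values. The 3 members called lower became 1 without a filter, 10 with upper quartile scaling, 11 with quantile normalization, 8 without mitochondrial DNA genes and 6 with a robust eBayes, and 0 to 6 when 1 library was left out. Over all rows 397 were higher and 33 lower; without a filter 122 and 10 were called. Lower calls became 64 with upper quartile scaling, 92 with quantile normalization and 54 without mitochondrial DNA genes. Leaving out 1 library gave 0 to 687 higher and 0 to 98 lower.

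Scaling to the adipocyte markers, chosen after seeing the data, called 2917 rows higher and 25 lower. It gave medians of -0.08 for the mitochondrial and 0.08 for the peroxisomal genes, 2 members higher and 1 lower, and 1 member lower at an unadjusted p under 0.05. It called 2 other oxidation genes higher and 2 lower, 1 peroxin higher, and 3 regulators higher and 1 lower. The signs of 15 members turned: Echs1 0.00, Acadl 0.02, Acaa1b 0.02, Pcca 0.05, Hsd17b4 0.07, Abcd2 0.09, Acadsb 0.11, Acads 0.11, Etfa 0.12, Phyh 0.13, Eci1 0.14, Etfb 0.15, Amacr 0.13, Acox3 0.28 and Eci2 0.33. Crot turned to -0.02 with upper quartile scaling and with quantile normalization. When 1 library was left out, Acox3 ranged from -0.23 to 0.12 and Eci2 from -0.08 to 0.06. Other oxidation genes called lower were 0, and 1 with quantile normalization and 0 to 2 when 1 library was left out; regulators called lower were 0 to 2. The causes were not tested.

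With the replicate number as a block, 21 rows were lower and 333 higher, 1 member, Cpt1b, was lower (adjusted p = 0.0157, against 0.0697 for Acadvl and 0.08 for Etfdh), and 1 other oxidation gene was lower. The labels do not say that the numbers pair the samples, and deviations of same-numbered libraries correlated at -0.00581.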
